A study of Mus musculus with 6 samples.

Results

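*Araf*, *Braf*, *Map2k1*, *Map2k2*, *Mapk3*, *Ksr1*, *Shoc2*, and *Ppp1cb* encode RAF, MEK, and ERK kinases, their KSR scaffold, and the leucine-rich repeat and phosphatase subunits of the SHOC2 complex. These 8 genes were picked by symbol and found by their identifiers among the 56923 genes of the count table, and all 8 passed the filter on low counts, which left 17212 genes. Each of 6 libraries came from the left ventricle (LV) of a different 12-week-old mouse, 3 of them WT and 3 heterozygous for *Lztr1* R409C (*Lztr1* R409C/+), the genotype that the labels call mutant, as here; the labels give the tissue as heart. Both genotypes share the C57BL/6J background, and the hearts were perfused before lysis. The mutant mice carry a germline knock-in made with CRISPR/Cas9, so every cell of the heart carries the allele, and no transgene or Cre was involved. The labels name no treatment and no sex; the study examined the effects of the mutation in male mice. The labels do not name litters either, so the mice were treated as independent. P-values set the difference between genotypes against the spread between these mice.

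In this cascade, GTP-bound RAS proteins recruit RAF kinases to the membrane, RAF phosphorylates MEK, and MEK phosphorylates ERK on a threonine and a tyrosine of its activation loop. The SHOC2 complex, formed by the SHOC2 scaffold, GTP-bound MRAS, and a catalytic subunit of protein phosphatase 1 (PP1), removes an inhibitory phosphate from a serine of RAF that 14-3-3 proteins otherwise hold. KSR proteins bring RAF, MEK, and ERK together. LZTR1 is the substrate adaptor of a CUL3 ubiquitin ligase that acts on RAS-family proteins, and the cascade is best known in the heart for its part in cardiomyocyte growth. It is controlled mainly by phosphorylation, whereas the data below are RNA levels only.

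*Araf* and *Braf*, like *Map2k1* and *Map2k2*, are paralogs, and the coding stretches at the regulatory sites are shown first. For both pairs they show base differences at a single site, and they do not tell which transcripts the counts separate. In the coding sequence of the canonical transcripts (GENCODE vM39, GRCm39), the stretch around the serine codon that the SHOC2 complex acts on spanned 39 bases within 1 exon: chrX:20719621-20719659 (+ strand, codon 214) in *Araf* and chr6:39628566-39628604 (− strand, codon 348) in *Braf*. Capitals mark the 14 bases that differ between both genes.
Araf: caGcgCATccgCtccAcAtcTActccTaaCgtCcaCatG
Braf: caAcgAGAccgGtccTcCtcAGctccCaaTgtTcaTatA
The next 87 bases surround the activation-loop serine codons that RAF phosphorylates in the MEK genes, codons 218 to 222 of *Map2k1* (chr9:64098928-64101061, − strand, spanning an intron) and codons 222 to 226 of *Map2k2* (chr10:80955138-80955332, + strand, spanning an intron). Capitals mark the 18 bases that differ between both genes.
Map2k1: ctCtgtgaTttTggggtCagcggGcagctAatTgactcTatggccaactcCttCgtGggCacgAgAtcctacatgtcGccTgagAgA
Map2k2: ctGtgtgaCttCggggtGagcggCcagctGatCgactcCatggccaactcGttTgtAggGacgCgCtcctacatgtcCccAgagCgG
The last 81 bases surround the threonine and tyrosine codons of *Mapk3* that MEK phosphorylates (codons 203 to 205, chr7:126362594-126362674, + strand, within 1 exon). Here capitals mark the 9 bases from the threonine to the tyrosine codon.
Mapk3: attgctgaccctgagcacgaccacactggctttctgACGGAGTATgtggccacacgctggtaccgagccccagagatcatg

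Over the whole aligned coding sequence, identity was 78.5% for *Map2k1* and *Map2k2* and 69.5% for *Araf* and *Braf*. Few stretches of 50 bases recurred in other genes: 0% of those of the canonical *Araf* and *Ppp1cb* transcripts, 0.057% of *Mapk3*, 0.331% of *Map2k2*, 1.88% of *Ksr1*, 3.59% of *Braf*, 3.83% of *Shoc2*, and 7.79% of *Map2k1*. Most of the shared *Braf*, *Map2k1*, and *Shoc2* stretches lay in a gene on the opposite strand (*Ndufb2*, *Snapc5*, and *Bbip1*, respectively). Whether the counting used strand is not given in the sources used here, so reads from these overlaps could fall to either gene. Mean levels, in the CPM explained below, were 90.13 in WT and 98.25 in mutant mice for *Ndufb2*, beside 21.84 and 20.14 for *Braf*. They were 5.08 and 6.12 for *Snapc5*, beside 36.14 and 34.29 for *Map2k1*. For *Bbip1* they were 16.92 and 19.74, beside 33.84 and 31.41 for *Shoc2*. Among the other PP1 catalytic genes, which serve below as denominators, 20.0% of *Ppp1ca* stretches and 92.8% of *Ppp1cc* stretches recurred, the latter mostly in processed copies. Levels of *Ppp1ca* and *Ppp1cc* are therefore uncertain.

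Total counts ranged from 66130887 to 72641124 per library, and each member had between 409 and 64164 counts in a mouse. Levels are given as CPM, a gene's part of all counts scaled to a common total, after TMM scaling, which adjusts each library's total so that most genes keep the same level. TMM factors ran from 0.800 to 1.39. Mitochondrially encoded genes took 13.8% of the counts of WT replicate 3 and between 29.7% and 45.4% of the others. Mutant replicate 3 stood apart in another way: across 17127 genes, the deviation of its log2 levels from the mean of the 6 mice had a Spearman rho of 0.469 with the GC content of the transcript, against −0.242 to −0.00367 in the other 5. With transcript length, rho was −0.266 in mutant replicate 1, 0.216 in WT replicate 2, and −0.126 to 0.0849 in the other 4. Summed cardiomyocyte markers overlapped between genotypes, with 34020 to 38590 CPM in WT and 25510 to 37280 CPM in mutant mice, and summed atrial markers stayed below 1 CPM. Summed fibroblast, endothelial, smooth muscle and pericyte, and erythroid markers overlapped as well. Only the summed macrophage markers (5 genes, none at 0) did not overlap, with 65.6 to 67.1 CPM in WT and 106.3 to 128.3 CPM in mutant mice. Among all tested genes, taken singly, groups did not overlap in 15.5%. None of the 5 macrophage markers was called by itself, and the part of these cells in the levels below was not tested. In bulk tissue, fewer cells of a type and less RNA per cell cannot be told apart.

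No member passed the test between genotypes. At an adjusted p below 0.05 (two-sided quasi-likelihood test of edgeR, adjusted over all 17212 genes by the Benjamini-Hochberg method), 0 of 8 members were called, 0 of 8 had an unadjusted p below 0.05, and the groups overlapped in all 8. DESeq2's Wald test also called 0 of 8 members, beside 150 of all tested genes (0.871%). With edgeR, 7 of all tested genes were called (0.0407%), 8.63% had an unadjusted p below 0.05, and 15.5% had groups that did not overlap. By the sign of the estimate, 3 members lay above WT and 5 below, with a median log2 fold change of −0.05 beside 0.01 over all tested genes. The median size of the difference, without its sign, was 0.09 over members and 0.22 over all tested genes. These medians were not matched for level, since the members lay at percentiles 49.87 (*Ksr1*) to 99.08 (*Ppp1cb*) of the tested genes by mean CPM.

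**Figure D1:**
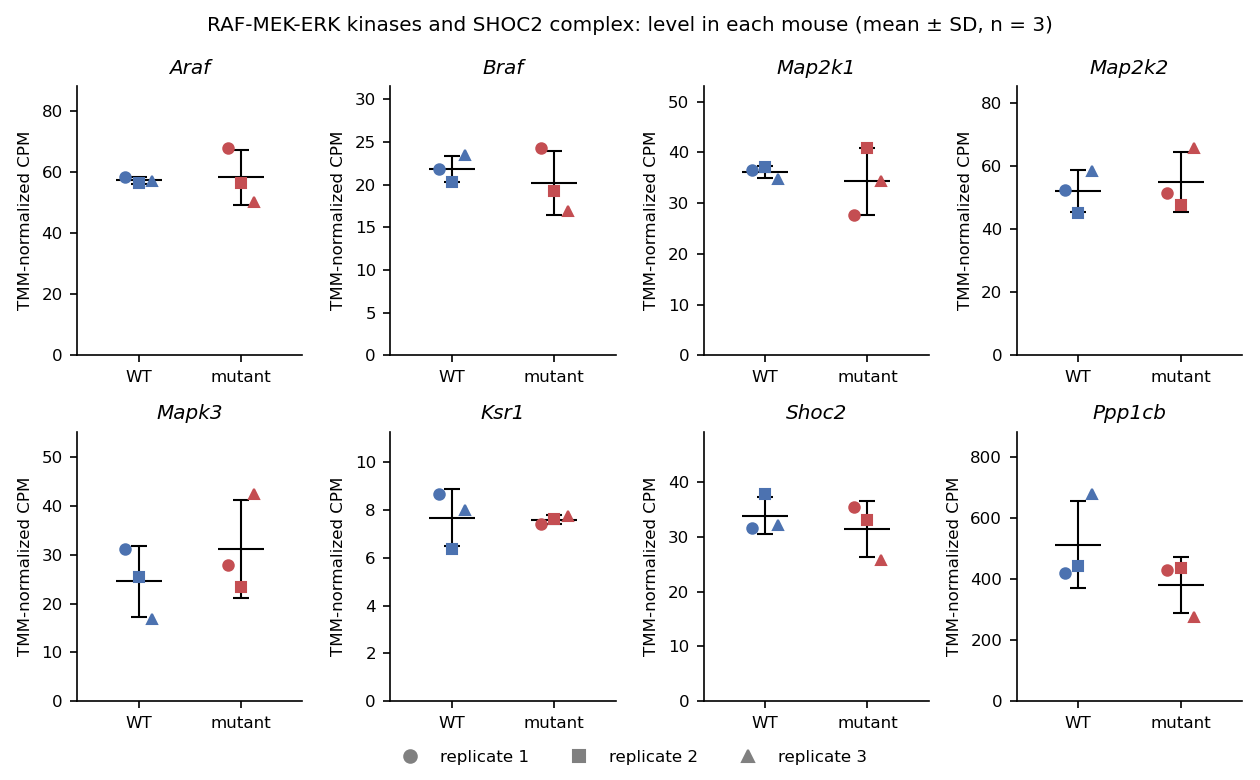
TMM-normalized CPM (y axis, from 0) of each member in each WT and mutant mouse; markers show the replicate number, and black lines the mean ± SD (n = 3). The genotypes overlap in every panel, and the widest spreads are those of *Mapk3* (16.9 to 42.5 CPM) and *Ppp1cb* (275.9 to 677.4 CPM), set by the replicate 3 mice of both genotypes.

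*Araf* (chrX:20664012-20726772, + strand, GRCm39 as all positions here) encodes ARAF, a RAF kinase. It measured 58.4, 56.4, and 57.0 CPM in the WT mice and 67.9, 56.6, and 50.3 CPM in the mutant mice, here and below in the order of their replicate numbers. The WT mice lay within the range of the mutant mice, whose SD (8.90 CPM) exceeded that of WT mice (1.04 CPM). The log2 fold change was 0.02 ± 0.16 (SE), with a 95% interval of −0.32 to 0.36 and an adjusted p of 0.978 (edgeR). *Braf* (chr6:39579870-39702629, − strand) encodes BRAF, a RAF paralog with strong kinase activity. It measured 21.8, 20.3, and 23.4 CPM in WT mice and 24.3, 19.3, and 16.9 CPM in mutant mice. The highest and the lowest of the 6 values both came from mutant mice. Its log2 fold change was −0.12 ± 0.17 (95% interval −0.50 to 0.26, edgeR adjusted p = 0.892).

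*Map2k1* (chr9:64093048-64160992, − strand) encodes MEK1. It measured 36.4, 37.2, and 34.8 CPM in WT mice and 27.7, 40.8, and 34.3 CPM in mutant mice. As for *Araf*, the WT values were closer together (SD 1.23 CPM) than those of mutant mice (SD 6.57 CPM), and they lay inside the latter's range. Mutant over WT, this gave a log2 fold change of −0.08 ± 0.17 (95% interval −0.44 to 0.29, edgeR adjusted p = 0.935). *Map2k2* (chr10:80941723-80969809, + strand) encodes MEK2, the other MEK kinase. It measured 52.5, 45.3, and 58.5 CPM in WT mice and 51.6, 47.7, and 65.7 CPM in mutant mice. The third replicate was the highest of its genotype in both groups, although the replicate numbers do not mark a shared litter or batch in the labels. The estimate for *Map2k2* was 0.08 ± 0.17 on the log2 scale (95% interval −0.29 to 0.45, edgeR adjusted p = 0.931).

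*Mapk3* (chr7:126358723-126364991, + strand) encodes ERK1. It measured 31.3, 25.5, and 16.9 CPM in WT mice and 27.9, 23.3, and 42.5 CPM in mutant mice. The lowest value was that of WT replicate 3 and the highest that of mutant replicate 3, while the other 4 mice interleaved between 23.3 and 31.3 CPM. The log2 fold change was 0.35 ± 0.25 (95% interval −0.21 to 0.90, edgeR adjusted p = 0.746). It was 0.06 without mutant replicate 3, 0.14 without WT replicate 3, 0.56 without WT replicate 1, and 0.21 without WT replicate 3 and mutant replicate 1, a pair left out after seeing the data because it had the lowest and the highest share of mitochondrially encoded counts.

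*Ksr1* (chr11:78904266-79037308, − strand) encodes the KSR1 scaffold, a pseudokinase related to RAF. It measured 8.67, 6.35, and 8.02 CPM in WT mice and 7.42, 7.61, and 7.77 CPM in mutant mice. Here the mutant values were the closer ones (SD 0.176 CPM, against 1.20 CPM in WT mice) and lay inside the WT range. For *Ksr1* the log2 fold change was −0.02 ± 0.19 (95% interval −0.43 to 0.40, edgeR adjusted p = 0.988). Its paralog *Ksr2* was not tested, since no mouse exceeded 0.136 CPM and 3 of 6 mice had 0 counts, which allows up to 3 counts, or at most 0.0541 CPM in the libraries here.

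*Shoc2* (chr19:53932303-54025049, + strand) encodes the scaffold that names the complex. It measured 31.6, 37.8, and 32.2 CPM in WT mice and 35.4, 33.1, and 25.7 CPM in mutant mice. The lowest value was that of mutant replicate 3, and the other 5 mice lay between 31.6 and 37.8 CPM. The log2 fold change was −0.11 ± 0.17 (95% interval −0.47 to 0.26, edgeR adjusted p = 0.898). *Ppp1cb* (chr5:32603063-32674777, + strand) encodes the beta catalytic subunit of PP1, which also serves myosin phosphatase and other holoenzymes. It measured 418.2, 441.3, and 677.4 CPM in WT mice and 430.6, 436.7, and 275.9 CPM in mutant mice. The highest value came from WT replicate 3 and the lowest from mutant replicate 3, and the other 4 mice differed by little (418.2 to 441.3 CPM). The log2 fold change was −0.43 ± 0.23 (95% interval −0.93 to 0.08, unadjusted p = 0.0899, edgeR adjusted p = 0.643). Without WT replicate 3 it was −0.18, without mutant replicate 3 it was −0.24, and without WT replicate 3 and mutant replicate 1 it was −0.27. Its unadjusted p was below 0.05 with scaling by library size only (0.0462), without the filter on low counts (0.0489), and after a correction for GC content added once the data had been seen (0.0391), while no adjusted p fell below 0.471 or exceeded 0.976 in the 17 alternatives to the reported analysis (DESeq2's Wald test in 1 of them, edgeR in the others). *Mras*, the RAS protein of the complex, was at 3.85 ± 0.653 CPM in WT and 3.73 ± 0.501 CPM in mutant mice (log2 fold change −0.04, edgeR adjusted p = 0.976). The mutated gene itself, *Lztr1*, was at 23.5 ± 1.11 CPM in WT and 25.7 ± 2.03 CPM in mutant mice (log2 fold change 0.13, edgeR adjusted p = 0.854; 0.06 without mutant replicate 2), and gene counts cannot check a single-codon change.

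**Figure D2:**
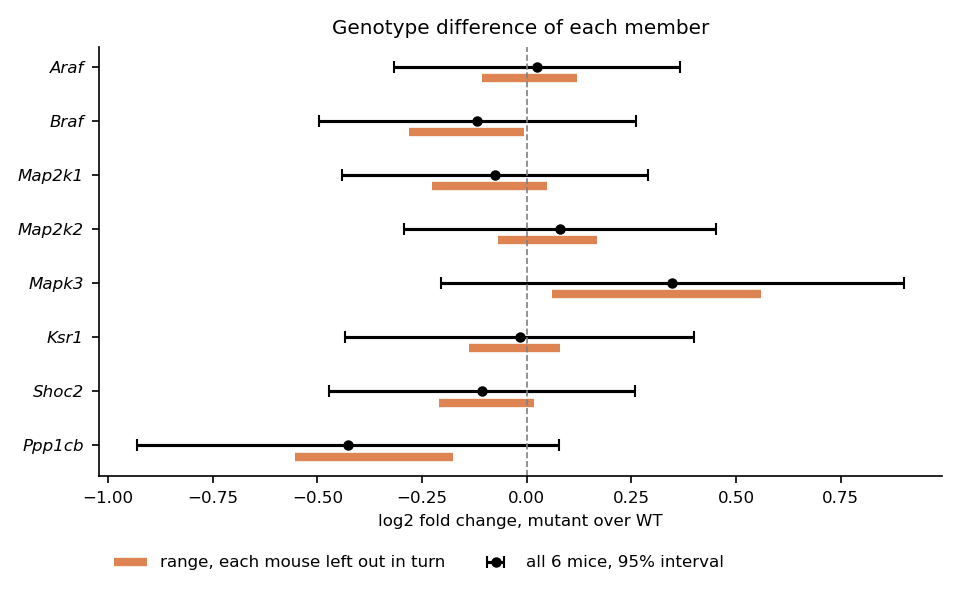
Log2 fold change of mutant over WT mice (x axis) for each member: points and thin lines show the estimate from all 6 mice with its 95% interval, and thick bars the range when each mouse is left out in turn. Every interval includes 0; the bars of *Mapk3* (0.06 to 0.56) and *Ppp1cb* (−0.55 to −0.18) stay on 1 side of it, as does that of *Braf* (−0.28 to −0.01).

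The intervals state how large a difference these 6 mice could still hold. For *Araf*, *Braf*, *Map2k1*, *Map2k2*, *Ksr1*, and *Shoc2*, the bounds of the fold ranged from 0.709-fold (*Braf*, lower bound) to 1.37-fold (*Map2k2*, upper bound). For *Mapk3* they were 0.867-fold and 1.87-fold, and for *Ppp1cb* 0.525-fold and 1.05-fold. The biological coefficient of variation, the relative spread between mice that edgeR estimates beyond counting error, was 15.2% for *Araf*, 16.1% for *Map2k1* and *Shoc2*, 16.3% for *Map2k2*, 16.7% for *Braf*, and 18.4% for *Ksr1*, each below the value fitted to genes of the same level. It was above that value for *Mapk3* (22.8%, against 17.5%) and *Ppp1cb* (20.9%, against 17.9%).

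**Figure D3:**
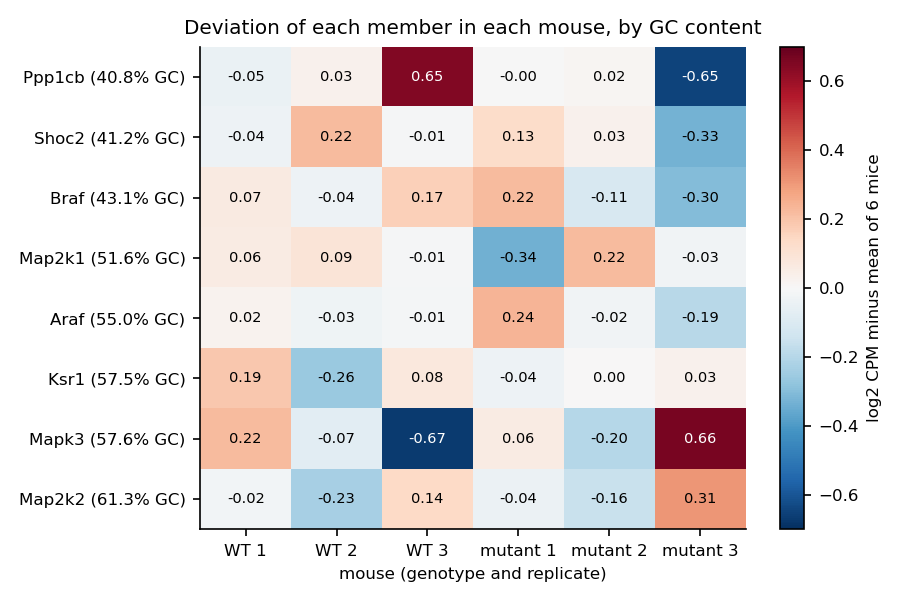
Log2 CPM of each member in each mouse minus its mean over the 6 mice (colour and printed value), with members ordered from low to high GC content of the canonical transcript. In mutant replicate 3, the 3 members with the lowest GC content are low (−0.65 to −0.30) and *Mapk3* and *Map2k2* are high (0.66 and 0.31), while *Ksr1*, with a GC content close to that of *Mapk3*, is at 0.03 and *Araf* at −0.19; *Ppp1cb* and *Mapk3* deviate with opposite signs in WT replicate 3 (0.65 and −0.67).

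From mouse to mouse, pairs of members varied together as well as against each other. Of 28 pairs of members, 12 had a positive and 16 a negative Pearson r of log2 CPM over the 6 mice; these correlations describe 6 shared libraries and were not tested. The most alike were *Araf* and *Braf* (r = 0.85), followed by *Braf* and *Ppp1cb* (r = 0.75). The most opposed were *Mapk3* and *Ppp1cb* (r = −0.96) and *Map2k2* and *Shoc2* (r = −0.88). The deviations that set the *Mapk3* and *Ppp1cb* relation were those of WT replicate 3 and mutant replicate 3. After the correction for GC content, *Mapk3* had a log2 fold change of 0.26 and *Ppp1cb* one of −0.42.

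For each member, the gene most like it over the 6 mice was *Paip2* for *Araf* (r = 0.992), *Cct4* for *Braf* (r = 0.991), *Adcy2* for *Map2k1* (r = 0.996), *Tfpt* for *Map2k2* (r = 0.995), *Gtf2f1* for *Mapk3* (r = 0.996), the unnamed gene *Gm47845* for *Ksr1* (r = 0.992), *Prkd3* for *Shoc2* (r = 0.994), and *Mrpl3* for *Ppp1cb* (r = 0.997). Over 6 points, high values were not limited to these genes. Between 19 genes (for *Ksr1*) and 156 genes (for *Ppp1cb*) had an r above 0.95, where 17212 genes were tested. *Mrpl3* repeated the shape of *Ppp1cb*, with 90.0, 95.3, and 117.8 CPM in WT mice and 91.4, 93.9, and 71.6 CPM in mutant mice. *Gtf2f1* repeated that of *Mapk3*, with 8.88, 7.60, and 4.75 CPM in WT mice and 7.62, 6.63, and 12.1 CPM in mutant mice. *Adcy2* lay below 0.560 CPM in every mouse, so its likeness to *Map2k1* rests on few counts.

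To compare genes with each other, CPM was divided by the length of the gene's annotated exons in kb. In WT mice, *Ppp1cb* was the highest member, with 45.3 ± 12.7 CPM per kb (SD, n = 3). *Map2k1* (9.61 ± 0.326) and *Mapk3* (9.20 ± 2.72) followed, then *Araf* (6.07 ± 0.111) and *Map2k2* (5.85 ± 0.741), then *Shoc2* (3.47 ± 0.351), and last *Braf* (1.16 ± 0.0820) and *Ksr1* (1.07 ± 0.167), all in CPM per kb in WT mice. Within the neighbouring pairs *Map2k1* and *Mapk3*, *Araf* and *Map2k2*, and *Braf* and *Ksr1*, the ranges of the 3 WT mice overlapped; between the other neighbours they did not. In mutant mice, *Ppp1cb* stayed first (33.7 CPM per kb), and *Shoc2*, *Braf*, and *Ksr1* stayed last in this order (3.22, 1.07, and 1.06 CPM per kb). The annotation lists up to 65 transcripts per member (*Map2k2*), so the joined exons can be much longer than the main mRNA. With the canonical transcript as the length, a choice made after seeing the data, *Map2k2* (24.1 CPM per kb) and *Araf* (22.6 CPM per kb) came before *Map2k1* (14.7 CPM per kb) and *Mapk3* (13.6 CPM per kb), and 4 of the 8 members kept their place. *Ppp1cb*, *Shoc2*, *Braf*, and *Ksr1* held the first and the last 3 places under all 3 lengths tried.

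**Figure D4:**
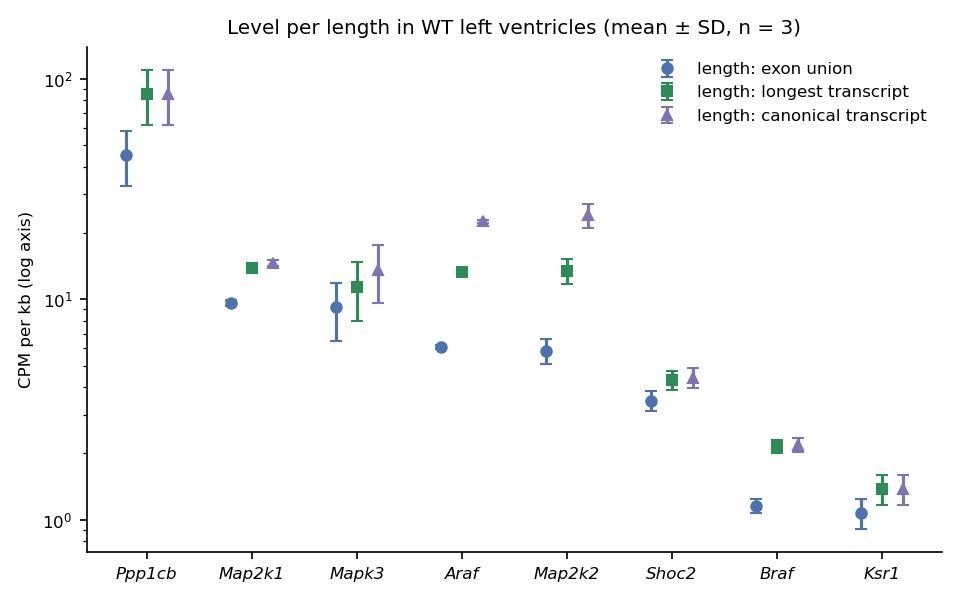
Level per length of each member in WT LVs (y axis, CPM per kb on a log axis; mean ± SD, n = 3) with 3 definitions of length. *Ppp1cb* lies highest and *Shoc2*, *Braf*, and *Ksr1* lie lowest under each, while the middle 4 members change places.

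*Map2k1* made up 62.2% ± 3.77 of MEK transcripts per length in WT and 59.4% ± 6.55 in mutant mice (SD, n = 3 each), but 38.0% ± 3.79 and 35.5% ± 6.46 with canonical lengths, so which MEK gene leads depends on the length. Summed over both genes, MEK transcripts were at 15.5 ± 0.434 CPM per kb in WT and 15.3 ± 1.86 CPM per kb in mutant mice, with overlapping genotypes.

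A ratio of 2 genes within a mouse needs no scaling between libraries. For 3 such ratios and 1 share, genotypes were compared with a two-sided exact permutation test, which cannot go below p = 0.1 with 3 mice against 3; the 4 p-values were adjusted together, and the adjusted p lay between 0.4 and 0.6. The ratio of *Braf* to *Araf* counts was 0.373, 0.360, and 0.410 in WT and 0.357, 0.340, and 0.335 in mutant mice. All 3 mutant values lay below the WT values, although by little, and the log2 difference was −0.14 (exact permutation p = 0.1, n = 3 each). It kept its sign when each mouse was left out (from −0.18 to −0.09, the latter without WT replicate 3) and was −0.06 after the correction for GC content, but it was 0.05 after a correction for transcript length, both added after seeing the data. *Braf* and *Araf* transcripts differ in both properties (43.1% against 55.0% GC, and 9960 against 2535 bases). *Ndufb2*, which overlaps *Braf* exons on the opposite strand, had the higher level of the 2 (90.13 CPM in WT and 98.25 CPM in mutant mice). The part of its reads in this ratio was not tested.

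The ratio of *Map2k2* to *Map2k1* counts was 1.44, 1.22, and 1.68 in WT and 1.86, 1.17, and 1.91 in mutant mice, with overlapping groups (log2 difference 0.17, exact permutation p = 0.6). The difference depended on single mice: without one of them it ranged from 0.04 (mutant replicate 3), 0.05 (WT replicate 2), and 0.06 (mutant replicate 1) to 0.28 (WT replicate 3) and 0.40 (mutant replicate 2). It was 0.08 after the correction for GC content and 0.14 after that for transcript length, both added after seeing the data.

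Within the SHOC2 complex, the ratio of *Shoc2* to *Ppp1cb* counts was 0.0755, 0.0856, and 0.0475 in WT and 0.0822, 0.0758, and 0.0933 in mutant mice. WT replicate 3 was the lowest, and the other 5 mice lay between 0.0755 and 0.0933 (log2 difference 0.31, exact permutation p = 0.4; 0.05 without WT replicate 3 and 0.48 without WT replicate 2). *Ppp1cb* made up 36.3%, 41.2%, and 49.9% of the transcripts per length of the 3 PP1 catalytic genes in WT and 36.0%, 39.9%, and 25.1% in mutant mice. The groups overlapped (42.4% ± 6.91 in WT against 33.7% ± 7.64, a difference of −8.79 percentage points, exact permutation p = 0.2), and the difference was −4.52 points without mutant replicate 3 and −5.06 points without WT replicate 3. The share of *Ppp1cc*, whose level is uncertain, was 19.65%, 21.27%, and 20.44% in WT and 21.93%, 21.52%, and 21.65% in mutant mice. These *Ppp1cc* shares did not overlap between genotypes under any of the lengths, which only rescale the same counts. The *Ppp1cc* share was not among the planned comparisons, and the difference was not tested. *Ppp1ca* was at 98.9 ± 13.9 CPM in WT and 113.8 ± 18.2 CPM in mutant mice (log2 fold change 0.20, edgeR adjusted p = 0.791; 0.08 without mutant replicate 3, 0.31 without mutant replicate 2, and 0.32 without WT replicate 1), and *Ppp1cc* at 80.5 ± 9.55 and 80.9 ± 4.92 CPM (log2 fold change 0.01, edgeR adjusted p = 0.992).

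**Figure D5:**
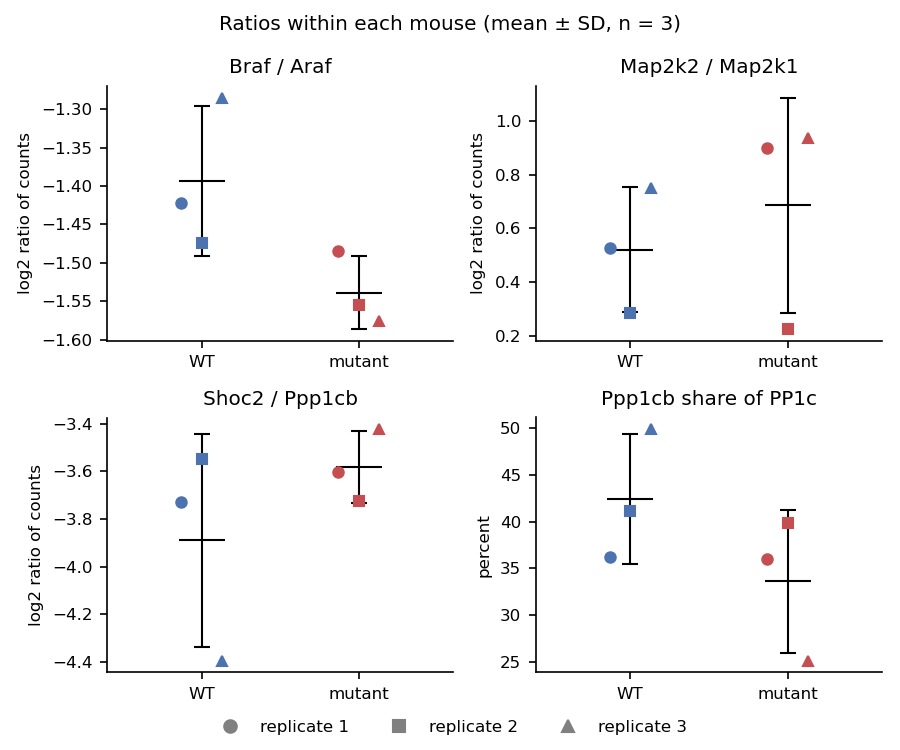
Log2 ratios of counts for 3 pairs of genes and the share of *Ppp1cb* among PP1 catalytic (PP1c) transcripts per length (y axes, which do not start at 0) in each mouse; black lines show the mean ± SD (n = 3). The genotypes separate only for *Braf* to *Araf*, where the y axis spans the smallest difference shown (log2 difference −0.14).

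Around the members, 70 genes were listed: 55 that act with the cascade and 15 of other MAP kinase cascades as a contrast, of which 53 and 13 were tested. None of the 66 passed an adjusted p of 0.05 with edgeR. Among the 53 cascade genes, 6 had an unadjusted p below 0.05 (1 higher and 5 lower in mutant mice, 11.3%, beside 8.63% of all tested genes), and in the contrast list 0 of 13 did. The count of 6 fell to 3 without WT replicate 3. Groups did not overlap in 11 of the 53 (20.8%, beside 15.5% of all tested genes), 3 higher and 8 lower, where all tested genes had 8.30% higher and 7.23% lower, and in 1 of the 13. The median log2 fold change of the cascade genes was −0.10 and that of the contrast list −0.06, beside 0.01 over all tested genes. Log2 fold changes were negative in 60.4% of the cascade genes and in 61.5% of the contrast list, against 48.6% of all tested genes. By list, they were negative in 3 of 7 RAS proteins, 3 of 4 other cascade kinases, and 0 of 2 PP1 paralogs. The same held for 12 of 20 scaffolds, chaperones, and adaptors, 2 of 5 inhibitors, and 6 of 9 ERK-activated kinases and substrates. The 6 phosphatase subunits that act on the module had log2 fold changes from −0.39 to −0.10. Groups overlapped in all of them but *Ppp2cb*, a catalytic subunit of PP2A named here after its values were seen, and their lowest adjusted p was 0.564 (edgeR).

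The listed genes with the smallest p in each direction were *Rras*, a RAS-related GTPase, and *Rps6ka4*, which encodes the ERK- and p38-activated kinase MSK2, on the higher side, and *Cnksr2*, a scaffold that binds RAF, and *Hsp90aa1*, a chaperone that RAF kinases depend on, on the lower side. *Rras* measured 13.2, 12.0, and 12.1 CPM in WT and 14.6, 16.8, and 19.1 CPM in mutant mice (log2 fold change 0.44, edgeR adjusted p = 0.504). *Rps6ka4* measured 13.8, 15.5, and 14.0 CPM in WT and 18.5, 17.4, and 17.6 CPM in mutant mice (log2 fold change 0.31, edgeR adjusted p = 0.610). *Cnksr2* measured 0.681, 1.09, and 1.64 CPM in WT and 0.578, 0.252, and 0.276 CPM in mutant mice (log2 fold change −1.64, edgeR adjusted p = 0.389). *Hsp90aa1* measured 157.2, 140.8, and 244.1 CPM in WT and 102.2, 134.0, and 109.9 CPM in mutant mice (log2 fold change −0.65, edgeR adjusted p = 0.436). WT replicate 3 was the highest, and without it the log2 fold change was −0.37 (edgeR adjusted p = 0.642). In these 4 genes the groups did not overlap, but they were chosen for their small p, and none passed the adjusted threshold.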

How the data were processed

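The authors deposited raw counts per gene for 6 mice, made with Trim Galore, HISAT2, StringTie, and edgeR on GRCm39 per the submitters' notes, with rRNA reads excluded; the annotation release, the strand setting, and the tools' versions are not given in the sources used here. A second deposited table supplied gene symbols; its fold changes, average CPM, p-values, and FDR of the authors' comparison were not used. Genotypes came from the sample titles, and the R409C allele from the results text of the study. Members and lists were chosen with earlier results of these data known. Members were taken by symbol, with named genes as follows: the 8 members, paralogs, *Mras*, *Lztr1*, the 2 higher and 2 lower listed genes with the smallest p, and the gene most like each member; some items are not reported here. Other positions, symbols, and lengths came from GENCODE vM39 (56236 of 56923 identifiers matched). Counts were filtered with filterByExpr (minimum count 10), scaled with TMM, and tested two-sided with edgeR 4.0.16 (R 4.3.3) in the robust quasi-likelihood fit; ratios were tested with SciPy 1.17.1. The fit and the permutation test were tested on simulated data. Alternatives covered scaling, filters, DESeq2 1.42.0, mitochondrial genes, mice left out, and GC and length corrections (loess, span 0.5). Depth was 66130887 to 72641124 counts, so 3 counts equal 0.0317 to 0.0541 CPM; this covers counting error only.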

Additional observations from a re-analysis of the deposited data

How the results depend on the processing

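No member was called at an adjusted p of 0.05 under any of the 17 alternatives, 3 of them added after seeing the data, nor at 0.1; over all genes, calls ranged from 1 (replicate block) to 150 (DESeq2's Wald test), against 7. Scaling by library size only moved the median of all genes by −0.16 (log2), and its log2 fold changes were −0.16 for *Araf*, −0.089 for *Map2k2*, −0.19 for *Ppp1cc*, and −0.014 for *Lztr1*, all opposite in sign to the reported ones. Signs also turned with upper-quartile scaling (*Ksr1* 0.027, *Mras* 0.0004), and for *Ppp1cc* with DESeq2's size factors (−0.0004), with the Wald test (−0.0005), and without the filter (−0.0082). They turned after the GC correction (*Araf* −0.013, *Map2k2* −0.0069), and after the length correction (*Braf* 0.054, *Ksr1* 0.067, *Shoc2* 0.027, *Ppp1cc* −0.019, *Mras* 0.019, and the ratio of *Braf* to *Araf* 0.051); the cause was not tested. When each mouse was left out in turn, or WT replicate 3 together with mutant replicate 1, values ranged from −0.11 to 0.12 for *Araf*, −0.23 to 0.049 for *Map2k1*, −0.069 to 0.21 for *Map2k2*, −0.14 to 0.079 for *Ksr1*, −0.24 to 0.018 for *Shoc2*, −0.052 to 0.11 for *Ppp1cc*, and −0.18 to 0.059 for *Mras*. *Mapk3* (0.06 to 0.56) and *Ppp1cb* (−0.68 to −0.18) kept their sign in all 17. The count of listed genes with an unadjusted p below 0.05 was 6, 2 with library size only, 2 without WT replicate 3 and mutant replicate 1, and 3 to 7 with each mouse left out. With canonical lengths, 4 of 8 members kept their place in the order of levels. Over all tested genes, deviations of same-numbered mice had correlations of −0.0013, 0.022, and −0.057. These values showed no pairing by replicate number, but they cannot exclude one that affects only part of the genes. With the number as a replicate block, 0 members were called, *Mapk3* was at 0.34 and *Ppp1cb* at −0.42. Each member had at least 409 counts per mouse, and with 3 mice per group the spread between mice enters every interval given.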
